A study of Mus musculus with 8 samples.

Results

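The 10 genes examined here encode the enzymes and transporters that make, recycle, break down and export glutathione, and they were followed in primary mouse cortical astrocytes with or without knockdown (KD) of GSTM1, a glutathione S-transferase of the mu class. They are Gclc, Gclm, Gss, Gsr, Slc7a11, Ggct, Oplah, Ggt7, Abcc1 and Glrx. Each was found by its gene symbol in the tables of all 8 libraries, 10 of 10 among 54146 genes, and all 10 passed the filter on low counts in every comparison. RNA-seq covered 4 groups of 2 biological replicates. Control KD astrocytes carried a non-silencing hairpin and GSTM1 KD astrocytes a hairpin against Gstm1, and each was harvested at the basal level or after TNF-α, an inflammatory cytokine, at 50 ng/ml for 6 h. All 8 cultures began as mixed glia from the cortices of C57BL/6 pups at postnatal days 2 to 5, with tissue of more than 1 pup in a flask. All were infected with a lentivirus, selected with puromycin and then enriched for astrocytes. The number of different hairpins, and whether the replicates came from separate litters, are not given in the sources used here, so p-values measure the spread between these cultures, which may be technical. Gene positions are on GRCm38, from GENCODE M21.

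Glutathione is a tripeptide of glutamate, cysteine and glycine and the main low-molecular-weight thiol of the cell. Its synthesis starts with glutamate-cysteine ligase, built from a catalytic subunit (Gclc) and a modifier subunit (Gclm), and ends with glutathione synthetase (Gss). Cystine, the oxidised form of cysteine, enters through the exchanger xCT (Slc7a11), oxidised glutathione is reduced again by glutathione reductase (Gsr), and astrocytes are known to export glutathione whose breakdown products supply neurons.

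The libraries held 17349682 to 34434615 estimated counts each, and the target gene followed its labels. At the basal level the 2 control KD libraries held 8153 and 9644 Gstm1 counts and the 2 GSTM1 KD libraries 676 and 626, and after TNF-α these were 4851 and 6492 against 527 and 405. All 10 astrocyte markers listed were above 1 TPM (transcript abundance scaled to gene length and library total) in every library. Their summed level was 1793 TPM in replicate 1 and 4129 TPM in replicate 2 of control KD at the basal level, and 1772 and 3942 TPM after TNF-α. In GSTM1 KD the sum was 4131 TPM in replicate 1 and 6236 TPM in replicate 2 at the basal level, and 3913 and 5945 TPM after TNF-α. Replicate 1 of control KD was thus the lowest and replicate 2 of GSTM1 KD the highest in both states. Gfap, at 651 to 4184 TPM, was the largest of the 10 markers in every library. In GSTM1 KD against control KD 0 of the 10 markers were called higher in either state, with S100b called lower in both. The 10 microglial markers summed to 7.28 to 19.8 TPM, with P2ry12 at or under 3 counts in every library. The 8 oligodendrocyte lineage markers summed to 448 to 596 TPM in control KD and 340 to 441 TPM in GSTM1 KD. Most of that sum was Olig1 (271 to 463 TPM) and Olig2 (35 to 113 TPM). Sox10 was at 0 to 0.24 TPM and Pdgfra at 0.96 to 2.18 TPM, and Mog, which marks mature oligodendrocytes, was at or under 3 counts. Cspg4 went the other way, with log2 fold changes of 0.32 and 0.24 in GSTM1 KD, and was not called. Of the markers of other cell types, Olig2 (-0.85 and -1.14) and Col1a2 (-1.13 and -0.99) were called lower in GSTM1 KD in both states on the log2 scale. Folr1 was called higher in both states (2.67 and 2.78), from only 3 to 55 counts per library. Of the other ependymal and choroid plexus markers, Foxj1 (0.0067 and 0.30) was not called, and Ttr and Kl, with at most 9 and 5 counts, were not tested. After TNF-α Olig1 was also called lower (-0.44) and Pdgfrb higher (0.81). The part of these differences in the results below was not tested, and in bulk RNA fewer cells of a type and less RNA per cell cannot be told apart.

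The promoters of Gclm and Slc7a11 are shown because words searched for lie just upstream of their start. These words are the core of the antioxidant response element and the ATF4 composite element, sites through which these genes are known to respond to stress. Whether the matches are those functional sites was not tested. RefSeq promoters (GRCm38.p6) were matched for 6 of the 10 genes (Gclm, Slc7a11, Gss, Glrx, Ggct and Ggt7). The 250 bases before the start are given on the gene's strand, 5′ to 3′, with matches in capitals. For Gclm (chr3:122245307-122245556, plus strand) the capitals mark the word TGACNNNGC, the core of the antioxidant response element, on the opposite strand. For Slc7a11 (chr3:50443614-50443863, minus strand) they mark TGATGNAA, the ATF4 composite element, once on each strand.
Gclm: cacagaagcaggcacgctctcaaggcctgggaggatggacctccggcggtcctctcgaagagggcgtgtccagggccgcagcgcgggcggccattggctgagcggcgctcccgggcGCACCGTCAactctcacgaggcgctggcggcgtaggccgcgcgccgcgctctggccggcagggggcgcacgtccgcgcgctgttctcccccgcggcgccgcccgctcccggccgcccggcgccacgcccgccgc
Slc7a11: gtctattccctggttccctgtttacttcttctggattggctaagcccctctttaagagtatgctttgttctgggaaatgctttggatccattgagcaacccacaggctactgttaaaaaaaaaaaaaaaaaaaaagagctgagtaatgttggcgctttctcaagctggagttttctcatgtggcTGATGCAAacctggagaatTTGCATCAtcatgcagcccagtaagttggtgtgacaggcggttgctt
The word TGACNNNGC, searched on both strands, was in the promoters of Gclm and Ggct and in 10.2% of all 32851 promoters of this length. The word TGATGNAA was in that of Slc7a11 alone among the 6, where both matches read TGATGCAA at 66 to 59 and 47 to 40 bases before the start, and in 3.45% of all promoters. The NF-κB consensus was in the promoter of Ggt7 and in 7.25% of all promoters. A match describes the sequence and does not show that a factor binds there.

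Compared per transcript length in TPM, Gclm was the most abundant of the 10 genes in every group, at 133 ± 1.14 TPM in control KD and 119 ± 2.70 TPM in GSTM1 KD before stimulation, and 119 ± 5.82 and 109 ± 0.205 TPM after TNF-α (mean ± SD, n = 2 in each). Slc7a11 was the least abundant, at 4.60 ± 1.56 and 4.20 ± 0.403 TPM at the basal level and 8.51 ± 3.39 and 7.88 ± 1.09 TPM after TNF-α. Between them stood Gss, Gclc, Gsr and Glrx at group means of 38.5 to 60.6 TPM, Abcc1 and Ggt7 at 19.5 to 37.9 TPM, and Oplah and Ggct at 10.4 to 17.1 TPM. Within control KD at the basal level the ranges of Gclc and Gsr, of Gsr and Glrx, of Abcc1 and Ggt7, and of Ggct and Oplah overlapped, so the order within those pairs is not set by 2 libraries. In control KD after TNF-α the overlapping neighbours were Gclc and Glrx, Gsr and Abcc1, Oplah and Ggct, and Ggct and Slc7a11. By group mean Gss was second in control KD in both states, although at the basal level Glrx, at 34.0 to 49.5 TPM, overlapped Gss, at 48.7 to 56.2 TPM. In GSTM1 KD its mean lay below those of Glrx and Gclc in both states.

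**Figure D1:**
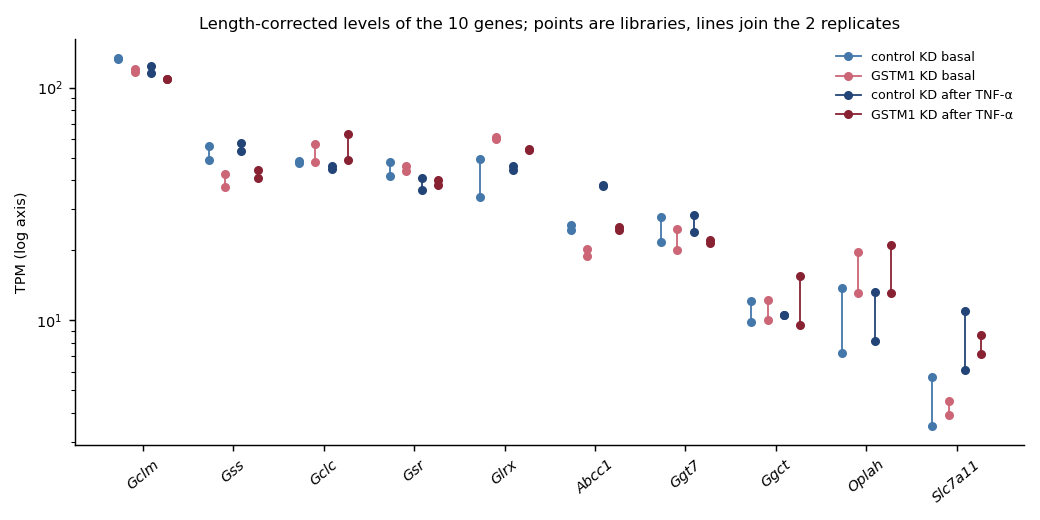
TPM (transcript abundance corrected for length, log axis) of the 10 genes along the x axis, where each point is 1 library, colours mark the 4 groups and a line joins the 2 replicates of a group. Gclm lies highest in every group, between 109 and 134 TPM, and Slc7a11 lowest by mean, between 3.49 and 10.9 TPM.

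The knockdown was compared within each state, to ask how loss of GSTM1 changes astrocyte gene expression before and after an inflammatory stimulus. At the basal level 0 of the 10 genes passed an adjusted p of 0.05 in edgeR's quasi-likelihood test, where 10.2% of 14899 genes did. Without adjustment 3 of the 10 had p under 0.05 (Gss, Glrx and Abcc1), against 31.6% of all genes, and DESeq2 called 1, Abcc1, where it called 16.9% of all genes. After TNF-α 2 of the 10 passed, Abcc1 and Gss, both lower in GSTM1 KD, where 16.2% of 14593 genes passed and 8.92% passed as lower. Blocked by replicate number, 4 of the 10 passed at the basal level (Gss, Glrx, Oplah and Abcc1), beside 31.6% of all genes. After TNF-α 3 of the 10 did (Gss, Oplah and Abcc1), beside 29.5%, and the labels do not say what a replicate number marks. The median log2 fold change of the 10 genes was -0.05 for basal cultures and 0.07 after TNF-α, beside -0.00 and -0.01 over all genes tested. The libraries of the 2 knockdowns did not overlap in CPM (counts scaled to a common library total) for 6 of the 10 genes at the basal level, beside 63.5% of all genes, and for 7 of 10 after TNF-α, beside 66.6%. The response to TNF-α was then tested within each knockdown. It was called for 1 of the 10 genes, Abcc1, which was higher in both knockdowns. In control KD 2.63% of 15332 genes were called and 2.1% as higher, and in GSTM1 KD 2.65% and 2.35%. Of the cell type markers, Pdgfrb was called lower after TNF-α in control KD (log2 fold change -1.28, edgeR adjusted p = 0.0278) and Olig2 lower in GSTM1 KD (-0.67, adjusted p = 0.0310), and their part in the responses was not tested.

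**Figure D2:**
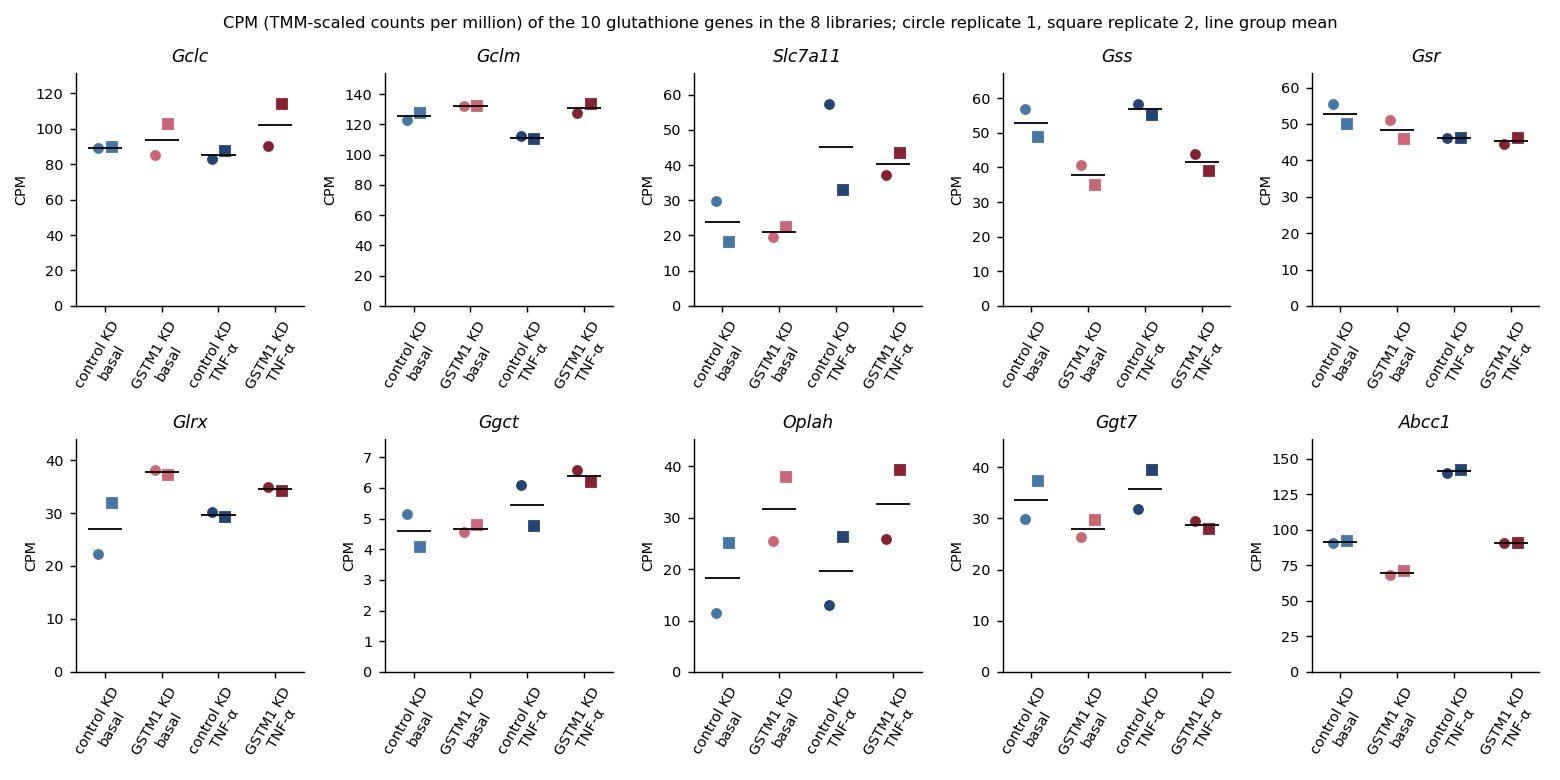
CPM of each of the 10 genes by library, with 1 panel per gene and the 4 groups along the x axis (circles replicate 1, squares replicate 2, lines the group means). Abcc1 is at 67.9 to 70.8 CPM in GSTM1 KD and 90.9 to 91.9 CPM in control KD at the basal level, with 90.5 to 90.9 and 140 to 142 CPM after TNF-α.

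Abcc1 (chr16:14361558-14475737, plus strand) encodes multidrug resistance protein 1, a pump that exports glutathione, oxidised glutathione and glutathione conjugates, and it was the member with the most calls. At the basal level it stood at 90.9 and 91.9 CPM in control KD cultures and at 67.9 and 70.8 CPM in GSTM1 KD cultures, from 1414 to 3215 counts. After TNF-α it stood at 140 and 142 CPM in control KD cultures and at 90.5 and 90.9 CPM in GSTM1 KD cultures, from 1583 to 3250 counts. The pairs of each group lay close together and no 2 groups overlapped, except that GSTM1 KD after TNF-α was level with control KD at the basal level. After TNF-α Abcc1 in GSTM1 KD was at 0.632 of its level in control KD, a log2 fold change of -0.66 (SE 0.0891, 95% interval -0.88 to -0.44, edgeR adjusted p = 0.0152). The basal log2 fold change was -0.40 (SE 0.0960, interval -0.64 to -0.16, edgeR adjusted p = 0.0573). This comparison passed in DESeq2 (adjusted p = 0.0493) and with all 8 libraries in 1 edgeR fit (adjusted p = 0.0135). In edgeR it also passed with no filter on low counts (adjusted p = 0.0217) and with the replicate number as a block (adjusted p = 0.00874). TNF-α raised Abcc1 1.54-fold in control KD (log2 fold change 0.63, SE 0.0729, edgeR adjusted p = 0.00764). In the knockdown it raised Abcc1 1.31-fold (0.39, SE 0.0733, edgeR adjusted p = 0.0432). The response in GSTM1 KD minus that in control KD was -0.24 on the log2 scale, and its 95% interval, -0.48 to 0.0034, included 0 (edgeR unadjusted p = 0.0525). These comparisons draw on the same 8 libraries, so the responses to TNF-α are not independent of the knockdown comparisons. A knockdown comparison with 1 of its 4 libraries left out takes its spread from the other pair alone, so the lone library is assumed to vary like that pair. The call of the knockdown after TNF-α was lost without either GSTM1 KD library, where 0 and 94 genes of the whole table were called, while the log2 fold change stayed between -0.67 and -0.65. The call of the response in GSTM1 KD was lost when any single library was left out and under 4 other settings. In those fits the log2 fold change of that response stayed between 0.34 and 0.42. The call of the response in control KD was lost with the 4 control KD libraries alone (log2 fold change 0.63, edgeR adjusted p = 0.115).

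Gss (chr2:155563181-155592810, minus strand), which adds glycine in the last step of synthesis, stood at 56.9 and 48.8 CPM in control KD cultures and 40.8 and 35.0 CPM in GSTM1 KD cultures at the basal level. After TNF-α it stood at 58.5 and 55.1 CPM against 44.0 and 39.1 CPM. Both GSTM1 KD libraries were below both control KD libraries in each state, and counts ran from 681 to 2012. The fold was 0.717 at the basal level (log2 fold change -0.48, SE 0.138, edgeR adjusted p = 0.0814) and 0.719 after TNF-α (-0.48, SE 0.113, edgeR adjusted p = 0.0450). At the basal level Gss passed with all 8 libraries in 1 edgeR fit (adjusted p = 0.0373) and with no filter on low counts (adjusted p = 0.00913). It also passed there with the replicate number as a block (edgeR adjusted p = 0.00539). The difference between the 2 log2 fold changes, tested in the fit of all 8 libraries, was 0.03 (interval -0.38 to 0.44). TNF-α itself gave Gss log2 fold changes of 0.10 and 0.13, with overlapping libraries. The call after TNF-α was not kept with library size alone (log2 fold change -0.44, edgeR adjusted p = 0.0578) or with effective lengths as offsets (-0.44, adjusted p = 0.0618). It was also not kept without control KD replicate 1 (-0.42), without GSTM1 KD replicate 1 (-0.55) or without GSTM1 KD replicate 2 (-0.39). Each of those fits leaves 1 library alone in its group. Exons of Gss overlap those of Acss2, an acetyl-CoA synthetase gene on the opposite strand, whose counts were higher in GSTM1 KD (664 and 724 counts in control KD libraries against 1424 and 1638, and after TNF-α 384 and 427 against 1268 and 1356), opposite in direction to Gss. Whether counting used the strand is not stated, so reads in the shared exons could go to either gene.

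Gclc (chr9:77754535-77794485, plus strand), the catalytic subunit of the rate-limiting enzyme of glutathione synthesis, stood at 89.0 and 89.6 CPM in control KD cultures and 85.4 and 102 CPM in GSTM1 KD cultures at the basal level, with overlapping libraries. After TNF-α it stood at 83.1 and 87.6 CPM against 90.5 and 114 CPM, and the 2 GSTM1 KD libraries lay above the control KD libraries. Its log2 fold changes in GSTM1 KD were 0.07 (interval -0.23 to 0.38) and 0.24 (interval -0.09 to 0.57), neither past the threshold. Its responses to TNF-α were -0.07 and 0.12, with intervals that included 0.

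Gclm (chr3:122245557-122270732, plus strand), the modifier subunit that raises the activity of Gclc, behaved differently by counts and by TPM. In counts it stood at 123 and 128 CPM in control KD cultures and 132 and 132 CPM in GSTM1 KD cultures at the basal level, and at 112 and 111 CPM against 128 and 134 CPM after TNF-α. The GSTM1 KD libraries were the higher in both states, with log2 fold changes of 0.08 (SE 0.0995) and 0.21 (SE 0.0913, edgeR adjusted p = 0.166). In TPM the order was the opposite, 134 and 133 TPM in basal control KD cultures, 121 and 117 TPM in basal GSTM1 KD cultures, and 123 and 115 against 109 and 109 TPM after TNF-α. The effective length, in which RSEM averages a gene's transcripts by their estimated abundance, was 1543 to 1655 bases in the 4 control KD libraries and 1964 to 2166 bases in the 4 GSTM1 KD libraries, without overlap. The mean ratio was 1.24 for basal cultures and 1.33 after TNF-α. Of 14379 genes, 79 (0.549%) were longer in GSTM1 KD by a ratio of at least 1.2 in both states, with libraries that did not overlap. By the same rule 35 (0.243%) were shorter, and Gclm was the only member past the rule, among the longer genes. Oplah was also longer without overlap (3310 to 3509 against 2727 to 3305 bases), at ratios of 1.18 and 1.11. The cutoff of 1.2 lies between Oplah and Gclm, and the shares depend on where it was set. Gclm has 7 transcripts in the files, of 5589 bases for the longest in GENCODE M21 and 292 to 1088 bases for the other 6. With effective lengths as offsets its log2 fold changes turned to -0.22 (edgeR adjusted p = 0.229) and -0.19 (edgeR adjusted p = 0.257), so the direction of Gclm depends on the scale and passed the test on neither. In GENCODE M21 exons of Gclm overlap those of Gm6061, a transcribed processed pseudogene on the same strand, and of Gm17494 on the opposite strand, so reads could be divided among them. Levels of the single transcripts and of those 2 genes were not used here.

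**Figure D3:**
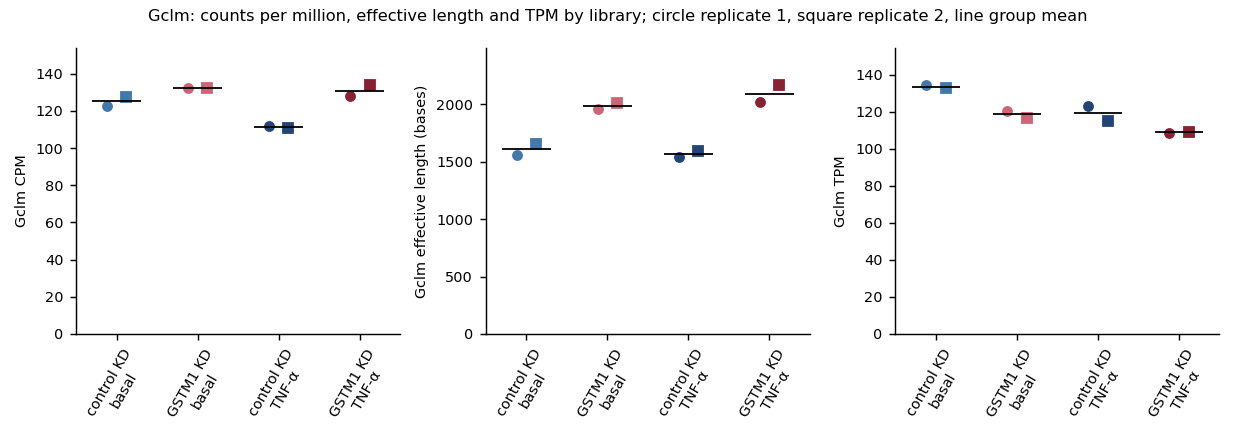
Gclm in the 8 libraries as CPM (left), effective length in bases (middle) and TPM (right), by group, with circles for replicate 1, squares for replicate 2 and lines for group means. GSTM1 KD is higher in CPM, longer (1964 to 2166 against 1543 to 1655 bases) and lower in TPM.

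The ratio of Gclm to Gclc in TPM, the balance of modifier to catalytic subunit transcripts, was 2.82 and 2.74 in basal control KD libraries and 2.52 and 2.04 in basal GSTM1 KD libraries. After TNF-α it was 2.77 and 2.51 against 2.22 and 1.73. Both GSTM1 KD libraries were below both control KD libraries in each state, and the ratio in TPM carries the change in the effective length of Gclm. The ratio of their counts was 1.38 and 1.42 against 1.55 and 1.29 for basal cultures and 1.35 and 1.26 against 1.41 and 1.17 after TNF-α, and on that scale the groups overlapped in both states.

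Slc7a11 (chr3:49892526-50443614, minus strand), the cystine importer, had the largest fitted response to TNF-α of the 10 genes. It stood at 29.7 and 18.1 CPM in control KD at the basal level and at 57.5 and 33.0 CPM after TNF-α, from 463 to 1335 counts. In GSTM1 KD it stood at 19.6 and 22.3 CPM at the basal level and at 37.2 and 43.5 CPM after TNF-α, from 445 to 805 counts. All libraries after TNF-α were above all basal libraries, and within control KD replicate 1 was well above replicate 2 in both states. The responses were 1.89-fold (log2 fold change 0.92, SE 0.305, edgeR adjusted p = 0.237) and 1.93-fold (0.95, SE 0.309, edgeR adjusted p = 0.258), and neither passed the threshold. With the 4 GSTM1 KD libraries alone the response in GSTM1 KD passed (0.95, edgeR adjusted p = 0.0163). Without the control KD replicate 1 libraries, a setting added after the data were seen, the log2 fold change was 0.94. That fit takes its spread from the same 4 GSTM1 KD libraries, so it is not a separate check. With no filter on low counts both responses passed, in control KD at an edgeR adjusted p of 7.2e-07 and in GSTM1 KD at 3.0e-07. That setting called 4.74% and 3.97% of all genes. The log2 fold changes were then 0.89 and 0.93, close to those above, with smaller SEs of 0.156 and 0.158. The log2 fold changes of GSTM1 KD were -0.19 and -0.20, with overlapping libraries. Without control KD replicate 1 they turned to 0.21 and 0.27, and without control KD replicate 2 Slc7a11 was called lower in GSTM1 KD in both states (-0.51, edgeR adjusted p = 0.0317, and -0.54, adjusted p = 0.0153). In those fits replicate 1 is the lone control KD library, and 34.2% and 32.9% of all genes were called. The difference between the responses was 0.03 on the log2 scale, with an interval from -0.99 to 1.04.

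Gsr (chr8:33652523-33698163, plus strand), which regenerates reduced glutathione with NADPH, stood at 55.6 and 50.1 CPM in control KD cultures and 51.0 and 45.8 CPM in GSTM1 KD cultures at the basal level. After TNF-α it stood at 46.0 and 46.2 CPM against 44.5 and 46.2 CPM. Its log2 fold changes in GSTM1 KD were -0.13 and -0.05, the latter with an interval from -0.29 to 0.19. Glrx (chr13:75839868-75850154, plus strand), glutaredoxin 1, which uses glutathione to release proteins from mixed disulfides, stood at 22.3 and 31.9 CPM in control KD cultures and 38.2 and 37.2 CPM in GSTM1 KD cultures at the basal level. After TNF-α it stood at 30.2 and 29.2 CPM against 35.0 and 34.2 CPM. The GSTM1 KD libraries were above the control KD libraries in each state, with log2 fold changes of 0.48 (SE 0.190, edgeR adjusted p = 0.152) and 0.19 (SE 0.110, edgeR adjusted p = 0.260), neither past the threshold. In basal cultures control KD replicate 1 was the lowest library, and the log2 fold change ran from 0.24 to 0.75 as single libraries were left out. With the replicate number as a block the basal value was 0.50 and passed (edgeR adjusted p = 0.0191), where 31.6% of all genes were called. Glrx was called higher at the basal level with no filter on low counts (edgeR adjusted p = 0.0456, 16% of all genes) and without control KD replicate 2 (0.75, adjusted p = 0.00276, 34.2% of all genes), where replicate 1 is the lone control KD library.

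Of Oplah, Ggt7 and Ggct, genes of the γ-glutamyl cycle, which breaks glutathione down and salvages its amino acids, none passed the threshold in the 5 comparisons as fitted here. Oplah (chr15:76296601-76328015, minus strand), the 5-oxoprolinase that returns glutamate at the end of the cycle, stood at 11.5 and 25.2 CPM in control KD cultures and 25.5 and 37.8 CPM in GSTM1 KD cultures at the basal level. After TNF-α it stood at 13.0 and 26.3 CPM against 25.9 and 39.4 CPM. Within each group replicate 2 was 1.48 to 2.18 times replicate 1, and the log2 fold changes of 0.79 (SE 0.391) and 0.71 (SE 0.365) had intervals from -0.18 to 1.76 and from -0.19 to 1.62. The lowest libraries were those of control KD replicate 1, which also had the lowest astrocyte marker sums, and the part of this in the difference was not tested. With single libraries left out the log2 fold change of Oplah ran from 0.33 to 1.45 at the basal level and from 0.28 to 1.3 after TNF-α. Without control KD replicate 2, which leaves replicate 1 as the only control KD library, Oplah was called higher in both states (1.45, edgeR adjusted p = 0.00188, and 1.3, adjusted p = 0.00697), where 34.2% and 32.9% of all genes were called. With no filter on low counts it passed likewise (adjusted p = 0.000389 and 0.000430), where 16% and 18.8% of all genes were called. Blocked by replicate number, Oplah also passed in both states (0.86, edgeR adjusted p = 0.00104, and 0.76, adjusted p = 0.0091). That setting called 31.6% and 29.5% of all genes, and the labels do not say what a replicate number marks. Exons of Oplah overlap those of Exosc4 and Smpd5 on the opposite strand, with 394 to 1054 and 0 to 13 counts. The effective length of Oplah was 2727 to 3305 bases in control KD and 3310 to 3509 bases in GSTM1 KD. Ggt7 (chr2:155490379-155518237, minus strand), of the γ-glutamyltransferase family, stood at 29.9 and 37.4 CPM against 26.3 and 29.7 CPM before stimulation, and at 31.9 and 39.6 CPM against 29.5 and 28.0 CPM after TNF-α. The GSTM1 KD libraries were the lower in both states, with log2 fold changes of -0.26 and -0.34 (edgeR adjusted p = 0.303 and 0.152), and exons of Ggt7 also overlap those of Acss2. Without control KD replicate 1 it was called lower after TNF-α (-0.48, edgeR adjusted p = 0.0397), where 18.3% of all genes were called and the lone control KD library is assumed to vary like the GSTM1 KD pair. Ggct (chr6:54982580-54992950, minus strand), γ-glutamylcyclotransferase, was the gene with the fewest counts, 79 to 182 per library or 4.06 to 6.60 CPM. Its log2 fold changes in GSTM1 KD were 0.02 (interval -0.58 to 0.62) and 0.21 (interval -0.38 to 0.79).

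The fitted responses to TNF-α of the 8 members other than Abcc1 and Slc7a11 did not pass the threshold. In control KD they ran from -0.20 for Gsr to 0.24 for Ggct on the log2 scale, and in GSTM1 KD from -0.13 for Glrx to 0.45 for Ggct, the latter above the 0.39 of Abcc1. All of their 95% intervals included 0. The 10 genes had a median response of 0.10 in control KD cultures and 0.08 in GSTM1 KD cultures, beside -0.02 and -0.01 over all genes tested.

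**Figure D4:**
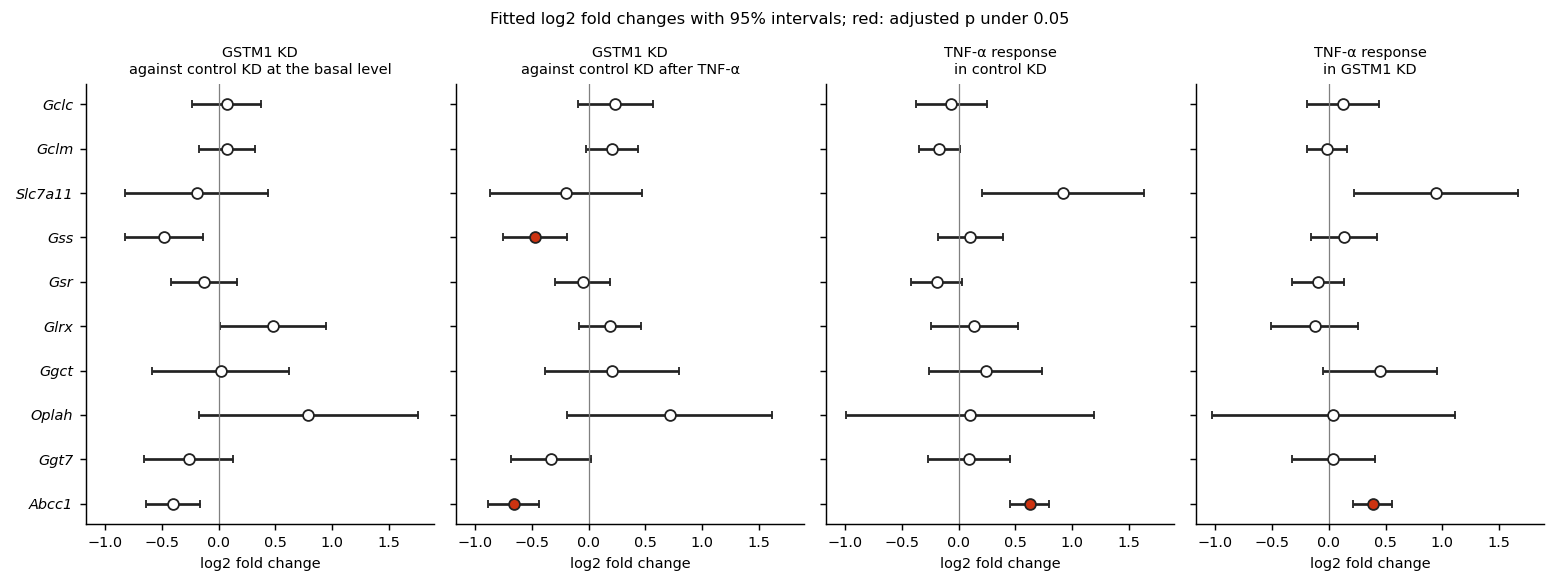
Fitted log2 fold changes of the 10 genes (points) with 95% intervals (bars) in the 4 comparisons, red where the edgeR adjusted p is under 0.05. Abcc1 is red in 3 of the 4 panels and Gss in 1, and the intervals of Slc7a11 and Oplah are the widest.

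Whether GSTM1 KD altered the response to TNF-α was tested as the difference of the responses. It was called for 0 of the 10 genes and for 0% of 15332 genes by edgeR, and for 0 of the 10 by DESeq2, which called 27 genes in all (0.176%). Without adjustment p was under 0.05 for 0 of the 10 genes and for 1.92% of all genes. The differences ran from -0.26 for Glrx to 0.21 for Ggct on the log2 scale.

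A list of 51 other genes of the pathway was read in the same fits. At the basal level 1 of 45 tested was called higher in GSTM1 KD and 0 lower, where 10.2% of all genes were called. This was Ggact, which cleaves γ-glutamylamines, at 12.6 ± 1.48 CPM in basal control KD cultures and 21.3 ± 0.0910 CPM in those with GSTM1 KD (log2 fold change 0.77, edgeR adjusted p = 0.0405). After TNF-α 2 of 44 were called higher and 2 lower, where 16.2% of all genes were called. Idh1, a cytosolic source of NADPH, was at 53.4 ± 12.9 and 98.3 ± 9.91 CPM (log2 fold change 0.86, edgeR adjusted p = 0.0345). Hagh, the glyoxalase that releases glutathione from lactoylglutathione, was at 27.4 ± 1.52 and 38.8 ± 0.864 CPM (0.48, adjusted p = 0.0437). Of the pair called lower, Txnrd1, the cytosolic thioredoxin reductase, was at 827 ± 224 CPM in control KD cultures and 434 ± 23.8 CPM in those with GSTM1 KD (log2 fold change -0.96, edgeR adjusted p = 0.0376). Bach1, a repressor that competes for antioxidant response elements, was at 80.8 ± 14.9 and 42.7 ± 0.461 CPM (-0.94, adjusted p = 0.0187). All 5 genes had the same sign in the other state, with edgeR adjusted p between 0.0628 and 0.159. The response to TNF-α was called for 1 of 45 in each knockdown, where 2.63% of all genes were called in control KD cultures and 2.65% in GSTM1 KD cultures. This was Bach1, which rose in control KD (log2 fold change 1.32, edgeR adjusted p = 0.00609) and also rose in the knockdown (0.94, adjusted p = 0.0196). The difference between these responses was -0.38 (95% interval -0.86 to 0.093). Among the genes not called in any comparison were those of cysteine and glutamate supply (9 tested) and of export and mitochondrial import (4 tested). In the 2 knockdown comparisons 10.2% and 16.2% of all genes were called, so few calls would fall in classes of this size.

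**Figure D5:**
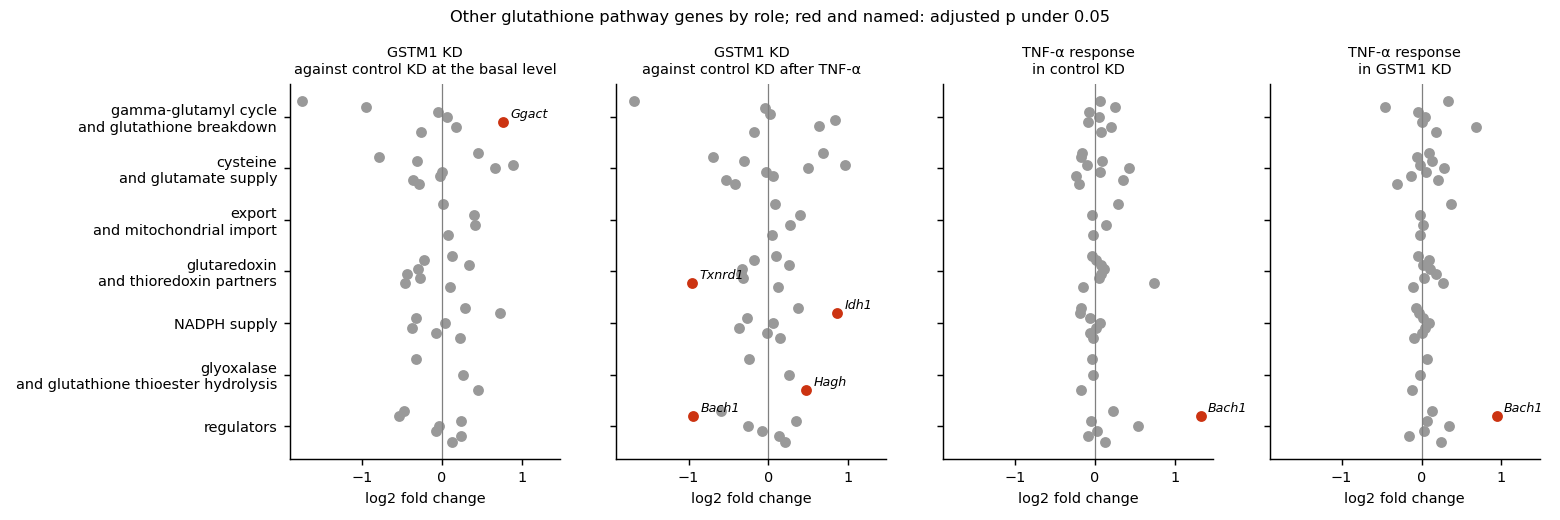
Fitted log2 fold changes (x axis) of the other glutathione pathway genes, grouped by role (y axis), in the 4 comparisons, 1 panel each, where a point is 1 gene and genes with an edgeR adjusted p under 0.05 are red and named. Ggact is red in the first panel, Txnrd1, Idh1, Hagh and Bach1 in the second, and Bach1 alone in both panels of the response to TNF-α.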

How the data were processed

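RNA-seq libraries of 4 groups with 2 biological replicates each were analysed. The authors made strand-specific, paired-end libraries, aligned them to GRCm38 with STAR (version 2.5.4b) and estimated transcript levels with RSEM (version 1.3.0). Deposited values include expected counts per gene, as RSEM estimated them, without normalization. The deposited TPM values are scaled by the authors to transcript length and to the same total per library, and were used for levels between genes, never in a test. The deposited effective lengths are in bases.

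After rounding to whole numbers, the counts were filtered by group with filterByExpr, scaled by TMM and tested with the quasi-likelihood F-test of edgeR (version 4.0.16, in R version 4.3.3). P-values were adjusted by Benjamini-Hochberg over all genes tested, at a threshold of 0.05. The knockdown was tested on the 4 libraries of each state, and the responses to TNF-α and their difference on all 8. CPM used the TMM-scaled library size. No exact test of 2 against 2 libraries can pass 0.05. A count of 3 was taken as the floor. The fits were checked on simulated counts that gave every gene the same dispersion. That checks the code and does not show how the tests behave on these data. Alternatives were DESeq2 (version 1.42.0), its size factors, library size alone, a minimum of 10 counts in each library or no minimum, the replicate number as a block, effective-length offsets, edgeR's newer quasi-likelihood method, all 8 or only 4 libraries, and leaving out each library.

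The 10 genes and the lists were chosen with earlier results of these data known. All 10 were named, with each gene of the pathway list past the threshold and Gstm1. Positions are from GENCODE M21 and promoters from RefSeq. Figures were drawn with matplotlib (version 3.10.9).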

Additional observations from a re-analysis of the deposited data

Results flagged for a closer look

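The effective length of Gclm, a column that entered no main comparison, was longer in GSTM1 KD than in control KD, with mean ratios of 1.24 for basal cultures and 1.33 after TNF-α. It was looked at because the CPM and TPM of Gclm moved in opposite directions. The 4 GSTM1 KD libraries (1964 to 2166 bases) did not overlap the 4 control KD libraries (1543 to 1655 bases). Oplah was also longer in GSTM1 KD without overlap, at smaller ratios of 1.18 and 1.11. The cause was not tested.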

How the results depend on the processing

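At the basal level 0 of the 10 genes were called in GSTM1 KD against control KD. The count was 1 in DESeq2, 4 with no filter on low counts and 2 with all 8 libraries in the fit, where 16.9%, 16% and 18% of all genes were called. It ran from 0 to 5 with single libraries left out, with 5 on leaving out control KD replicate 2 (34.2% of all genes) and 1 on leaving out its replicate 1 (14.3%). After TNF-α the count of 2 became 1 with library size alone (17.2% of all genes), 1 with effective-length offsets (13.5%) and 3 with no filter (Oplah gained, 18.8%). It ran from 0 to 4 with single libraries left out, being 0 without either GSTM1 KD library and 4 without control KD replicate 2 (32.9% of all genes). For the response in control KD the count of 1 became 2 with no filter (4.74% of all genes called) and 0 with only the 4 control KD libraries (Abcc1 edgeR adjusted p = 0.115, 0.486% of all genes), and stayed at 1 as each library was left out (1.14% to 1.99%). In GSTM1 KD the count of 1 became 0 with DESeq2's size factors (2.58%), 0 with library size alone (2.69%), 0 with effective-length offsets (2.34%), 2 with only the 4 GSTM1 KD libraries (Slc7a11 and Abcc1, 4.68%) and 0 as each library was left out (0.468% to 2.82%). The added fit without control KD replicate 1 in either state gave 2 (4.41%). With no filter the response in GSTM1 KD was called for Slc7a11 and not for Abcc1 (edgeR adjusted p = 0.108, 3.97% of all genes called). For the difference of the responses 0 of the 10 members were called in all settings run, while DESeq2 called 27 of all genes, no filter 134 (0.506%) and the fit without GSTM1 KD basal replicate 2 called 2. The number of listed pathway genes called ran from 0 to 19 at the basal level and from 0 to 20 after TNF-α, while the share of all genes called ran from 0.0064% to 34.2% and from 0% to 32.9%.

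The replicate block gave 4 calls of 10 at the basal level (Gss, Glrx, Oplah and Abcc1), where it called 31.6% of all genes, and 3 of 10 after TNF-α (Gss, Oplah and Abcc1), where it called 29.5%. With the block basal Gss had an edgeR adjusted p of 0.00539 and Oplah 0.00104 (0.0091 after TNF-α), and 16 listed pathway genes passed in each knockdown comparison, of 45 and 44 tested. The block changed no member's call in the responses to TNF-α or their difference. The labels do not say what a replicate number marks, and deviations of same-numbered libraries correlated at 0.165 to 0.575 between groups over 15332 genes.

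Signs turned with effective-length offsets for Gclm (-0.22 at the basal level, -0.19 after TNF-α), for Ggct (-0.029 at the basal level, -0.038 for the response in control KD) and for the difference of Oplah (0.036). They turned with no filter for Ggct at the basal level (-0.011), with library size alone for the response in GSTM1 KD of Oplah (-0.0018) and Ggt7 (-0.0043), and with at least 10 counts for the difference of Slc7a11 (-0.00058). They also turned in the added fit for the response in control KD of Glrx (-0.13) and the difference of Gss (-0.042). With single libraries left out, the basal log2 fold change ran from -0.51 to 0.21 for Slc7a11, -0.15 to 0.20 for Ggct and -0.074 to 0.20 for Gclc, and that after TNF-α from -0.54 to 0.27 for Slc7a11. The response in control KD ran from -0.10 to 0.43 for Glrx, -0.47 to 0.77 for Oplah and -0.066 to 0.27 for Ggt7. That in GSTM1 KD ran from -0.29 to 0.35 for Oplah, -0.042 to 0.13 for Ggt7, -0.045 to 0.015 for Gclm and -0.049 to 0.28 for Gclc. The difference ran from -0.38 to 0.49 for Slc7a11, -0.087 to 0.15 for Gss, -0.73 to 0.51 for Oplah and -0.23 to 0.11 for Ggt7. None of the reversed values was called in the reported test. The cause of these shifts was not tested, beyond the fewer libraries or genes in a fit. With 2 libraries per group the precision is set by the spread between cultures more than by depth.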
